A study of Mus musculus with 6 samples.

Results

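Transcripts of 10 genes that release, make, sense and break down prostaglandins were compared between whole uteri of control and *Gp130* ecKO mice. The genes were *Pla2g4a*, *Ptgs1*, *Ptgs2*, *Ptges*, *Ptges2*, *Ptgis*, *Ptger2*, *Ptger4*, *Ptgfr* and *Hpgd*. They were chosen by their known roles, with earlier results of these data known. All 10 were found among the 56748 genes measured, and all 10 were among the 16605 with enough counts to be tested. Uteri were taken at 1600 h on day 4 of pregnancy, shortly before embryos attach, from 3 control and 3 *Gp130* ecKO females on a C57BL/6 background (C57BL/6J in the methods). *Gp130* ecKO females were sexually mature, carried 1 *Ltf*-iCre allele and were homozygous for floxed *Gp130*, the gene (listed as *Il6st*) for the signal transducer of the leukemia inhibitory factor receptor. The labels give the controls as WT, whereas the methods of the study describe controls as wildtype females or as floxed females without iCre, and which of these a given control was is not stated. All females had been mated with fertile wildtype males. *Ltf*-iCre acts in the uterine epithelium but also in some neutrophils and macrophages, and the RNA came from the whole uterus, with stroma, muscle and vessels. In such RNA, fewer cells of a type and less RNA per cell cannot be told apart.

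Prostaglandins are short-lived lipids made from arachidonic acid, which a phospholipase A2 cuts from membrane lipids and a cyclooxygenase turns into the common precursor PGH2. Terminal synthases then form PGE2, prostacyclin, PGD2, PGF2α or thromboxane, each of which acts through its own receptors, and the signal ends by uptake into cells and oxidation. In the mouse uterus prostaglandins are known for their part in implantation, when vessels near the embryo become leaky and the stroma decidualizes, and later in parturition.

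The groups did not overlap for 3 of the 10 genes, against 31.3% of all genes tested. These were *Pla2g4a*, *Ptgs1* and *Ptger4*, with each *Gp130* ecKO uterus above all controls (15.7% of all genes tested), and 0 of the 10 lay below all controls (15.6%). No gene of the 10 passed an FDR under 0.05 with more than 2-fold change by edgeR's quasi-likelihood test, a criterion met by 0.157% of all genes tested (26 genes). At an unadjusted p under 0.05 there were 4 of the 10, *Pla2g4a*, *Ptgs1* and *Ptger4* with higher and *Ptger2* with lower values, against 25.0% of all genes tested. At an FDR under 0.1 with more than 2-fold change there were 2, *Pla2g4a* and *Ptgs1*, against 5.16%. The criterion at an FDR under 0.05 was met with edgeR's exact test by *Pla2g4a*, *Ptgs1* and *Ptger4* (7.54% of all genes), with its likelihood ratio test by the same 3 genes (7.93%), and with DESeq2 by these 3 and *Ptger2* (9.29%). The median log2 fold change of the 10 genes was −0.22, and that of all genes tested −0.05. The median size of the change, without its sign, was 1.01 for the 10 genes and 0.43 for all genes tested. Because the 10 genes were chosen with earlier results of these data known, these comparisons with all genes are descriptive only.

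The promoters of the 3 genes with no overlap between the groups are shown here together with those of *Ptgs2* and *Ptger2*, the paralogs of *Ptgs1* and *Ptger4* that did not share their pattern. Each is the 250 bases upstream of the transcription start in RefSeq on GRCm38.p6, written 5′ to 3′ on the strand of the gene. They lie at chr1:149961291-149961540 (minus strand, *Pla2g4a*), chr2:36230176-36230425 (plus strand, *Ptgs1*), chr15:5244188-5244437 (minus strand, *Ptger4*), chr1:150099781-150100030 (plus strand, *Ptgs2*) and chr14:44987861-44988110 (plus strand, *Ptger2*). Capitals mark a match, on either strand, to any of the motifs searched.
Pla2g4a: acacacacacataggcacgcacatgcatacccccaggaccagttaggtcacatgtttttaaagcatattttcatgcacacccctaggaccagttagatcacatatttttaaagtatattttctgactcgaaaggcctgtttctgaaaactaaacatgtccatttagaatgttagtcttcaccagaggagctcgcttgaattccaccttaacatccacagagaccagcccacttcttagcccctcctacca
Ptgs1: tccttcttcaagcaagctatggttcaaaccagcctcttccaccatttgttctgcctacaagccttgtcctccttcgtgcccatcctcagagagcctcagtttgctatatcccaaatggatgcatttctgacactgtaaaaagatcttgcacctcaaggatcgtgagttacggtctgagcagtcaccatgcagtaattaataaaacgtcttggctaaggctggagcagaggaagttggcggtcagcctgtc
Ptger4: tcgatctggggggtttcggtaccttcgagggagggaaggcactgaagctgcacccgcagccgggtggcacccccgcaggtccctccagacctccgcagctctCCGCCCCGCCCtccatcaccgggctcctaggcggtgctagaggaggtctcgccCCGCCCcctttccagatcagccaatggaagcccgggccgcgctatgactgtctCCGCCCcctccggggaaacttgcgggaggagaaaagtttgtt
Ptgs2: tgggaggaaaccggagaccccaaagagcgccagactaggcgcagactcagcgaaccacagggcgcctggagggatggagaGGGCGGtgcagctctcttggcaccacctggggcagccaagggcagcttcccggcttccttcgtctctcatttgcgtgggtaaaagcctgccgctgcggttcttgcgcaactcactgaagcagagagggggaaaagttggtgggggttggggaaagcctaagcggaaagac
Ptger2: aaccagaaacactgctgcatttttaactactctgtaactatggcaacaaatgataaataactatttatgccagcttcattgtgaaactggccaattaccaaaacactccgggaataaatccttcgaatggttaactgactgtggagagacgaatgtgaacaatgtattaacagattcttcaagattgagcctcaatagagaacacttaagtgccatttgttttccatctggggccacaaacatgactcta

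Of the 10 genes, 9 had such a sequence. The share of G and C was 43.2% for *Pla2g4a*, 48.0% for *Ptgs1* and 66.8% for *Ptger4*, so the 3 genes lay on both sides of the median of 52.4% over 32841 promoter windows. It was 61.6% for *Ptgs2*, and only 8.4% of all windows had a lower share than *Ptger2*, against 33.8% for *Ptgs1*. In each pair of paralogs 1 promoter thus lay above the median and the other below it. The GC box GGGCGG was found in *Ptgs2*, *Ptges*, *Ptger4*, *Ptgfr* and *Hpgd*, and in 32.7% of all windows. *Ptger4* held 4 matches on the reverse strand, of which the 2 farthest from the start share a base. The E-box CACGTG (6.02% of windows) was found in *Ptges2*, and the TATA box TATAAA (12.4%) only in the window of a second annotated start of *Pla2g4a*, which is not printed. None of the 9 genes matched the STAT motif TTCNNNGAA (7.02% of windows), the AP-1 motif TGANTCA (6.75%), the CRE TGACGTCA (1.55%), the progesterone and glucocorticoid response element (0.387%) or the estrogen response element (0.0639%). A missing match says only that these letters are not in this window.

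The total expected count, RSEM's estimate of reads per gene summed over genes, was 13960748 in control 3 and 22930513 to 25906443 in the other uteri. *Il6st* was 452 to 678 CPM (counts relative to the TMM-scaled library size) in control and 349.8 to 388 CPM in *Gp130* ecKO uteri, with no overlap (log2 fold change −0.68, SE 0.21, adjusted p = 0.120 by edgeR's quasi-likelihood test). On the first dimension of a multidimensional scaling, control 2 lay at 0.03, between controls 1 and 3 (2.09 and 2.08) and the *Gp130* ecKO uteri (−1.47 to −1.32). Summed markers of epithelium (6 genes) were 2080 to 3668 CPM in control and 5109 to 6530 CPM in *Gp130* ecKO uteri. This sum holds *Krt8* and *Cdh1*, whose proteins the study reports by staining as higher in the *Gp130* ecKO epithelium. Sums were lower in every *Gp130* ecKO uterus than in every control for stroma (6 genes, 2035 to 2806 and 1213 to 1990 CPM), endothelium (5 genes, 344 to 856 and 191 to 339 CPM), neutrophils (4 genes, 5.07 to 8.06 and 0.588 to 1.70 CPM) and mast cells (4 genes, 10.7 to 20.7 and 1.90 to 10.4 CPM). The sums overlapped between the groups for glands (5 genes, 108 to 1063 and 154 to 8684 CPM), smooth muscle (6 genes, 437 to 1905 and 357 to 1979 CPM), macrophages (5 genes, 107 to 150 and 62.4 to 119 CPM), platelets (4 genes, 10.2 to 17.9 and 10.4 to 12.8 CPM, *Gp9* at most 3 counts), natural killer cells (4 genes, 34.1 to 52.9 and 10.8 to 42.8 CPM), mesothelium (4 genes, 33.9 to 173 and 37.2 to 95.6 CPM) and blastocysts (5 genes, 1.98 to 11.0 and 3.42 to 5.39 CPM, *Cdx2* and *Pou5f1* at most 3 counts). By median, 6 of 6 epithelial genes were higher and 6 of 6 stromal, 5 of 5 endothelial, 4 of 4 neutrophil, 4 of 4 mast cell, 6 of 6 smooth muscle and 4 of 4 mesothelial genes lower in *Gp130* ecKO uteri, though *Epcam*, an epithelial gene, and *Actg2*, a smooth muscle gene, had log2 fold changes of −0.19 and 0.05 in the edgeR fit. Most of the gland sum of 8684 CPM, that of *Gp130* ecKO 1, came from *Prss29* (6546 CPM) and *Prss28* (1876 CPM). The part of these cell types in the results below was not tested.

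*Pla2g4a*, the cytosolic phospholipase A2 that frees arachidonic acid, showed the largest fold change of the 10 genes. The gene (ENSMUSG00000056220) lies at chr1:149705369-149837053 in GRCm39 on the minus strand, and no other annotated gene shares its exons. Its level was 68.0, 268 and 88.7 CPM in controls 1, 2 and 3. The *Gp130* ecKO uteri 1, 2 and 3 had 652, 946 and 407 CPM. All knockout values exceeded all control values, and control 2 was the highest control by a wide gap. The mean was 142 ± 110 CPM in control and 668 ± 270 CPM in *Gp130* ecKO uteri (SD, n = 3), a ratio of 4.72. The log2 fold change was 2.24 with a standard error of 0.57, and the adjusted p over all genes tested was 0.0941 (unadjusted p = 0.00503, edgeR's quasi-likelihood test). An exact two-sided permutation test gave p = 0.1, the smallest that 3 uteri against 3 allow. The adjusted p was 0.00132 to 0.249 over the 17 alternatives. With single uteri left out the log2 fold change ran from 1.90 to 3.13. The highest value was that without control 2, which stood between the groups in the scaling, and there *Pla2g4a* alone of the 10 genes passed the criterion (adjusted p = 0.0168, edgeR's quasi-likelihood test), as did 5.23% of all genes.

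**Figure D1:**
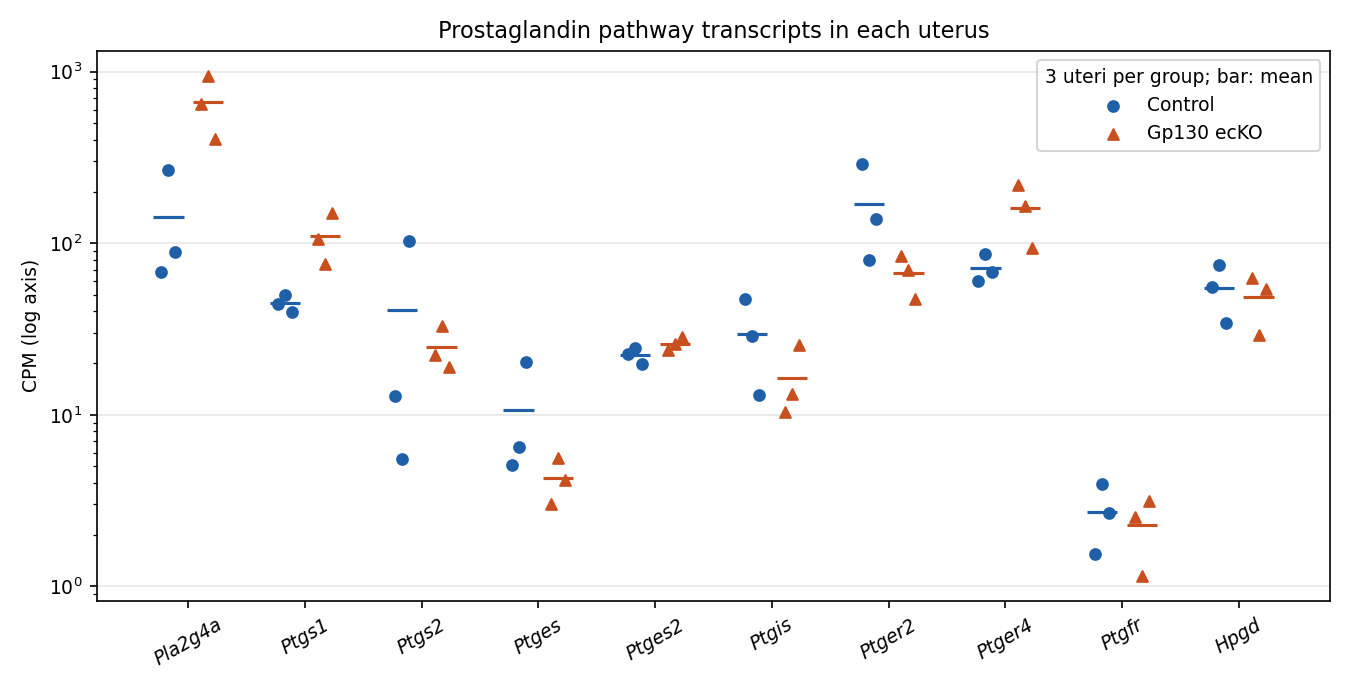
CPM (log axis) of the 10 genes in each of the 3 control uteri (circles) and 3 *Gp130* ecKO uteri (triangles), with a bar at the group mean. *Pla2g4a*, *Ptgs1* and *Ptger4* have all triangles above all circles, and 1 control uterus at 103 CPM stands far above the others for *Ptgs2*.

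The cyclooxygenases *Ptgs1* (COX-1, the constitutive form) and *Ptgs2* (COX-2, the inducible form) differed in the spread of the control uteri. *Ptgs1* (ENSMUSG00000047250, chr2:36120438-36142287) was 44.1, 50.1 and 39.7 CPM in controls 1, 2 and 3, whereas *Gp130* ecKO 1, 2 and 3 had 105, 75.6 and 151 CPM. The controls lay close together, and the lowest *Gp130* ecKO uterus was above the highest of them. The mean was 44.6 ± 5.21 CPM in control and 111 ± 37.9 CPM in *Gp130* ecKO uteri (SD, n = 3). The log2 fold change was 1.31 (SE 0.26), with an adjusted p of 0.0711 by edgeR's quasi-likelihood test, the lowest of the 10 genes. With each uterus left out in turn the log2 fold change stayed between 1.04 and 1.53, and its adjusted p was 0.000937 to 0.198 over all alternatives.

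*Ptgs2* (ENSMUSG00000032487, chr1:149975194-149983978), which lies beyond *Pla2g4a* on the same chromosome, was 12.8, 5.51 and 103 CPM in controls 1, 2 and 3. The *Gp130* ecKO uteri 1, 2 and 3 had 22.3, 32.9 and 18.9 CPM. Control 3 was above all other uteri and controls 1 and 2 were below all *Gp130* ecKO uteri, so the controls enclosed the *Gp130* ecKO group. The value of control 3 rested on 1552 counts. The log2 fold change was −0.71 (SE 0.94, adjusted p = 0.658 by edgeR's quasi-likelihood test), and without control 3 it was 1.43 (adjusted p = 0.198), so 1 uterus decided its sign. Control 3 also had the lowest total count of the 6 libraries, the lowest smooth muscle sum of the controls (437 CPM against 1547 and 1905) and, of the 6, the lowest sums for epithelium (2080 CPM), glands (108 CPM) and mesothelium (33.9 CPM) and the highest sums for macrophages (150 CPM), platelets (17.9 CPM) and natural killer cells (52.9 CPM). The part of these in its *Ptgs2* level was not tested. The long noncoding RNA *Ptgs2os* on the opposite strand, which shares 9.3% of the exon bases of *Ptgs2*, had at most 1 count in any uterus.

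Among the terminal synthases of the 10 genes, none separated the groups by CPM. *Ptges*, the inducible microsomal synthase of PGE2 (ENSMUSG00000050737, chr2:30779483-30820196), was 5.10, 6.48 and 20.3 CPM in controls 1, 2 and 3, whereas *Gp130* ecKO 1, 2 and 3 had 3.03, 5.61 and 4.15 CPM. Control 3 was again the highest uterus by a wide gap, and control 1 lay within the *Gp130* ecKO range. The log2 fold change was −1.30 (SE 0.56, adjusted p = 0.206 by edgeR's quasi-likelihood test), and −0.44 without control 3. *Ptges2*, a second PGE2 synthase of the Golgi membrane (ENSMUSG00000026820, chr2:32285659-32295786), had the smallest standard error of the 10 genes, at 22.7, 24.6 and 19.9 CPM in controls, whereas *Gp130* ecKO uteri had 23.7, 25.8 and 28.6 CPM. The groups overlapped in CPM, and its log2 fold change was 0.22 (SE 0.19, adjusted p = 0.490 by edgeR's quasi-likelihood test). In TPM, a relative abundance corrected for length, the groups did not overlap (18.8 to 24.4 TPM in control and 27.9 to 30.2 TPM in *Gp130* ecKO uteri), and the gene length that RSEM estimated differed between uteri, from 1258 to 1539 bases.

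*Ptgis*, the synthase of prostacyclin (ENSMUSG00000017969, chr2:167033725-167083018), was 47.3, 28.9 and 13 CPM in controls 1, 2 and 3, whereas *Gp130* ecKO 1, 2 and 3 had 10.4, 13.2 and 25.7 CPM. Control 3 lay within the *Gp130* ecKO range and controls 1 and 2 above it. Its log2 fold change was −0.86 (SE 0.51, adjusted p = 0.324 by edgeR's quasi-likelihood test), and −0.33 without control 1. In the controls the order of *Ptgis* and of the summed smooth muscle markers was the same (1905, 1547 and 437 CPM in controls 1, 2 and 3). It was also the same in *Gp130* ecKO 1, 2 and 3 (357, 655 and 1979 CPM). Summed mast cell markers shared this order in both groups (20.7, 16.2 and 10.7 CPM in controls, 1.90, 2.92 and 10.4 CPM in *Gp130* ecKO uteri). The part of these cell types in the *Ptgis* levels was not tested.

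The receptors of PGE2 that raise cyclic AMP, *Ptger2* and *Ptger4*, had fold changes of opposite sign. *Ptger4* (ENSMUSG00000039942, chr15:5236142-5273673) was 60.6, 86.6 and 67.8 CPM in controls 1, 2 and 3, whereas *Gp130* ecKO 1, 2 and 3 had 219, 166 and 94.0 CPM. The groups did not overlap, though *Gp130* ecKO 3 was only slightly above control 2. The mean was 71.7 ± 13.4 CPM in control and 159 ± 62.7 CPM in *Gp130* ecKO uteri (SD, n = 3). This gave a log2 fold change of 1.15 (SE 0.31, adjusted p = 0.102 by edgeR's quasi-likelihood test), between 0.86 and 1.45 with each uterus left out, and the adjusted p ranged from 0.0133 to 0.28 over the alternatives. *Ttc33*, a protein-coding gene on the opposite strand with 356 to 972 counts, shares 3.4% of the exon bases of *Ptger4*, and the pseudogene *Gm15937*, also on the opposite strand, shares 15.3% of them and had at most 1.47 counts.

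*Ptger2* (ENSMUSG00000037759, chr14:45225652-45241277) was 288, 80.1 and 139 CPM in controls 1, 2 and 3, whereas *Gp130* ecKO 1, 2 and 3 had 84.5, 69.7 and 47.1 CPM. Control 1 was far above all other uteri, and control 2 was just below *Gp130* ecKO 1, which made the groups overlap. The mean was 169 ± 107 CPM in control and 67.1 ± 18.8 CPM in *Gp130* ecKO uteri (SD, n = 3). Its log2 fold change was −1.33 (SE 0.45, adjusted p = 0.139 by edgeR's quasi-likelihood test), −0.68 without control 1, and −1.64 without control 2. DESeq2 gave an adjusted p of 0.0439, the lowest over the alternatives, of which the highest was 0.298. Noncoding genes on the opposite strand share up to 9.8% of the exon bases of *Ptger2* and had at most 40.1 counts.

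*Ptgfr*, the receptor of PGF2α that drives contraction (ENSMUSG00000028036, chr3:151502139-151543267), was weakly expressed, at 1.54, 3.93 and 2.67 CPM in controls, whereas *Gp130* ecKO uteri had 2.53, 1.15 and 3.15 CPM. These values stand for 30 to 102 counts, the groups overlapped, and the log2 fold change was −0.26 (SE 0.51, adjusted p = 0.770 by edgeR's quasi-likelihood test). *Hpgd*, the dehydrogenase that inactivates prostaglandins (ENSMUSG00000031613, chr8:56747543-56774082), was 55.7, 74.9 and 34.3 CPM in controls 1, 2 and 3, whereas *Gp130* ecKO 1, 2 and 3 had 63.1, 29.3 and 54.1 CPM. The groups overlapped and the log2 fold change was −0.17 (SE 0.36, adjusted p = 0.784 by edgeR's quasi-likelihood test). For both genes the sign turned without control 2 (0.18 for *Ptgfr* and 0.14 for *Hpgd*) and without *Gp130* ecKO 2 (0.07 and 0.09).

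**Figure D2:**
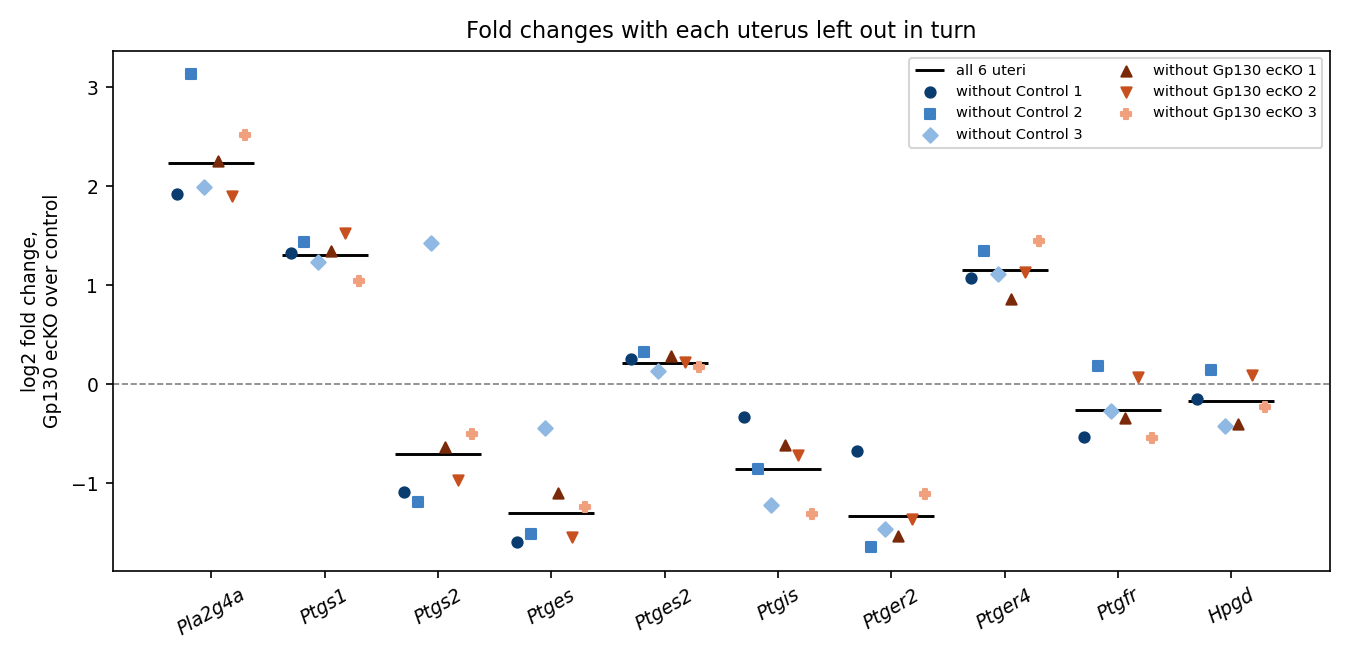
Log2 fold change (*Gp130* ecKO over control, edgeR) of the 10 genes with all 6 uteri (bars) and after removal of any single uterus (symbols). *Pla2g4a*, *Ptgs1*, *Ptges2* and *Ptger4* stay above 0 and *Ptges*, *Ptgis* and *Ptger2* below 0, while *Ptgs2*, *Ptgfr* and *Hpgd* cross it.

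By level per length, the order of the genes differed between the groups. In control uteri the median TPM was highest for *Ptger2* (54.5 TPM), followed by *Pla2g4a* (47.5), *Hpgd* (42.7), *Ptger4* (29.2), *Ptgs1* (26.6), *Ptges2* (23.2), *Ptgis* (18.9), *Ptgs2* (3.61), *Ptges* (2.77) and *Ptgfr* (0.60). Of neighbours in that order, only *Ptgs1* and *Ptges2*, and *Ptges* and *Ptgfr*, had ranges over 3 uteri that did not overlap. In *Gp130* ecKO uteri *Pla2g4a* led at 347 TPM, clear of the range of *Ptger4* (77.7), followed by *Ptgs1* (56.3), *Hpgd* (41.6), *Ptger2* (29.4) and *Ptges2* (27.9). Below them came *Ptgis* (10.9), *Ptgs2* (7.09), *Ptges* (1.79) and *Ptgfr* (0.54 TPM). There the ranges were apart between *Pla2g4a* and *Ptger4*, *Ptges2* and *Ptgis*, *Ptgs2* and *Ptges*, and *Ptges* and *Ptgfr*.

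Ratios of TPM within a uterus do not depend on the depth of the library, and 3 were compared. The ratio of *Ptger2* to *Ptger4* was 4.24, 0.826 and 1.86 in controls 1, 2 and 3, while *Gp130* ecKO 1, 2 and 3 had 0.346, 0.379 and 0.448. No knockout value reached a control value, and all 3 had more *Ptger4* than *Ptger2*, as did control 2. The log2 ratio differed by −2.27 (0.90 ± 1.18 in control and −1.36 ± 0.19 in *Gp130* ecKO uteri, SD, n = 3, exact two-sided permutation p = 0.1, 0.15 after Benjamini-Hochberg adjustment over the 3 ratios). It was −1.67 without control 1 and −2.85 without control 2. The ratio of *Pla2g4a* to *Hpgd*, release against breakdown, was 0.752, 2.27 and 1.6 in controls, while *Gp130* ecKO uteri had 6.36, 19.1 and 4.67. The groups did not overlap, and the log2 ratio differed by 2.57 (0.48 ± 0.81 and 3.05 ± 1.07, SD, n = 3, exact permutation p = 0.1, adjusted 0.15), or by 1.96 without *Gp130* ecKO 2. The ratio of *Ptgs1* to *Ptgs2* was 6.74, 15.4 and 0.820 in controls, while *Gp130* ecKO uteri had 7.84, 3.90 and 14.9. Control 3 was the only uterus with more *Ptgs2* than *Ptgs1*, and the log2 ratio differed by 0.81 (2.14 ± 2.18 and 2.94 ± 0.97, SD, n = 3, exact permutation p = 0.7, adjusted 0.7), or by −0.40 without control 3. The smallest p that the design allows is 0.1, so none of these ratios could pass 0.05.

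**Figure D3:**
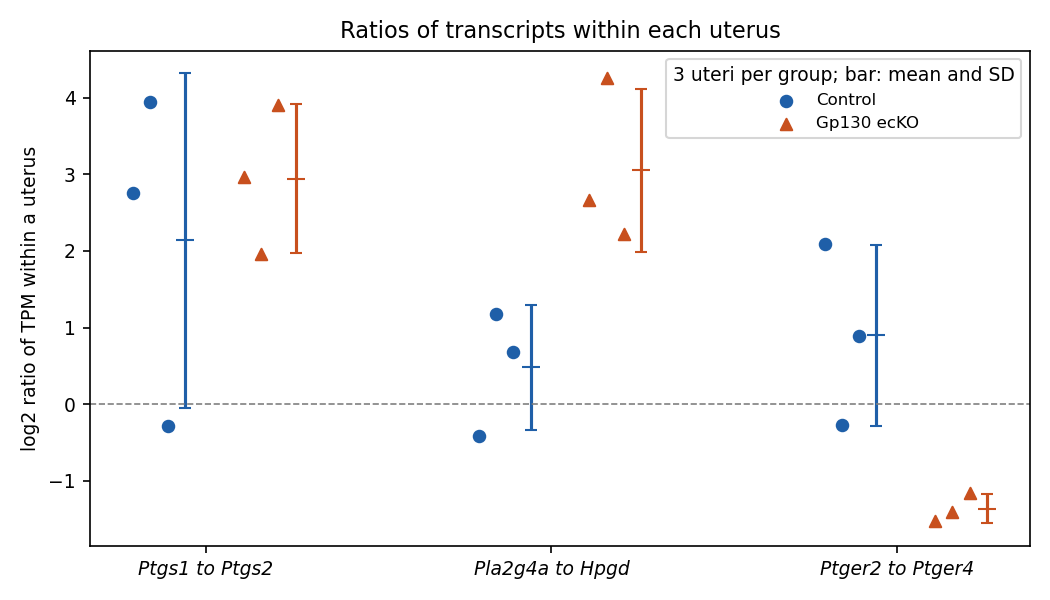
Log2 ratio of the TPM of 2 transcripts within each uterus (circles control, triangles *Gp130* ecKO, 3 uteri per group), with the mean and SD of each group. The *Gp130* ecKO uteri lie above every control for *Pla2g4a* to *Hpgd* and below every control for *Ptger2* to *Ptger4*, and overlap the controls for *Ptgs1* to *Ptgs2*.

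Beyond these genes, 36 others of the pathway were listed by role, of which 28 passed the filter and 8, all of them phospholipases A2, did not. Of the 28, 0 passed the FDR and fold criterion by edgeR's quasi-likelihood test (0.157% of all genes tested). With edgeR's exact test (7.54% of all genes), its likelihood ratio test (7.93%) and DESeq2 (9.29%) the same 5 passed, *Pla2g5*, *Hpgds* and *Ptgr1* with higher and *Ptger3* and *Ptgdr* with lower values. Without control 2 there were 4 by the quasi-likelihood test (5.23%), *Pla2g5*, *Ptgr2*, *Ptgr3* and *Ptgdr*. At an unadjusted p under 0.05 there were 12, 4 with higher and 8 with lower values, against 12.1% of all genes higher and 12.9% lower. The groups did not overlap for 4 with higher and 7 with lower values (15.7% and 15.6% of all genes tested), and the median log2 fold change was −0.23. In TPM the groups overlapped for 3 of these 11, *Pla2g4b*, *Hpgds* and *Ptgfrn*. The reverse held for *Cbr1* and *Prxl2b*, of the terminal synthases and reductases, which overlapped in CPM but not in TPM. *Cbr1* was 55.5 to 115 TPM in control and 129 to 191 TPM in *Gp130* ecKO uteri. *Prxl2b* was 12.7 to 15.4 TPM in control and 10.45 to 11.6 TPM in *Gp130* ecKO uteri.

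Of 7 other phospholipases A2 tested, *Pla2g5*, a secreted form, was 0.364, 6.21 and 2.20 CPM in controls 1, 2 and 3, whereas *Gp130* ecKO 1, 2 and 3 had 25.5, 13.7 and 18.4 CPM. The groups did not overlap, and its log2 fold change of 2.7 (SE 0.79, adjusted p = 0.113 by edgeR's quasi-likelihood test) had the sign of that of *Pla2g4a*. As for *Pla2g4a*, control 2 was the control nearest to the *Gp130* ecKO uteri, and single removals gave *Pla2g5* a log2 fold change of 2.18 to 4.07, the highest without control 2 (adjusted p = 0.0302, with a range over the alternatives of 0.007 to 0.29). *Pla2g10*, another secreted form with the highest TPM of the role, was 14.04 to 58.5 CPM in control and 34.6 to 114 CPM in *Gp130* ecKO uteri, with overlap. *Pla2g4b* was at most 2.60 CPM in any uterus and had lower values in *Gp130* ecKO uteri (log2 fold change −1.69, adjusted p = 0.175 by edgeR's quasi-likelihood test, and −1.03 without control 3).

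Of 8 other terminal synthases and reductases, *Hpgds*, the hematopoietic synthase of PGD2, was 11.4, 4.67 and 8.60 CPM in controls, whereas *Gp130* ecKO uteri had 62.2, 11.6 and 42.7 CPM. *Gp130* ecKO 2 was close to the controls, and the log2 fold change was 2.24 (SE 0.61, adjusted p = 0.102 by edgeR's quasi-likelihood test). Among cells known to express this enzyme, summed mast cell markers were 10.7 to 20.7 CPM in control and 1.90 to 10.4 CPM in *Gp130* ecKO uteri, and summed macrophage markers 107 to 150 and 62.4 to 119 CPM, and the part of these cells in the *Hpgds* levels was not tested. *Ptges3*, a cochaperone also described as a cytosolic PGE2 synthase, had the highest TPM of the role and was 402 to 459 CPM in control and 282 to 361 CPM in *Gp130* ecKO uteri (log2 fold change −0.45, adjusted p = 0.177 by edgeR's quasi-likelihood test). *Akr1b7*, an aldo-keto reductase, was at most 1.33 CPM, or 33 counts, with overlap between the groups (log2 fold change −1.86, or −3.05 without *Gp130* ecKO 3). *Akr1b3*, which can form PGF2α, was 64.6 to 81.9 CPM in control and 63.2 to 78.7 CPM in *Gp130* ecKO uteri. The lipocalin-type synthase of PGD2, *Ptgds*, reached at most 1.20 CPM and the thromboxane synthase *Tbxas1* at most 4.07 CPM.

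Of 8 other genes of receptors and receptor partners, 7 had a negative fold change, as had 52.9% of all genes tested, and 4 of them had no overlap between the groups in CPM (15.6% of all genes tested did so with lower values). *Ptger3*, the PGE2 receptor that lowers cyclic AMP, was 30.4, 28.6 and 21.9 CPM in controls 1, 2 and 3, whereas *Gp130* ecKO 1, 2 and 3 had 12.03, 8.46 and 12.8 CPM. Both groups were tight, the mean was 27.0 ± 4.45 CPM in control and 11.1 ± 2.30 CPM in *Gp130* ecKO uteri (SD, n = 3), and the log2 fold change was −1.28 (SE 0.25, adjusted p = 0.0677 by edgeR's quasi-likelihood test). *Ptgdr*, a receptor of PGD2, was 3.48, 0.578 and 0.733 CPM in controls, whereas *Gp130* ecKO uteri had 0.0904, 0.0385 and 0.166 CPM, which stand for 86, 15 and 11 counts and for 2, 1 and 4 counts. Its log2 fold change was −4.00 (SE 0.95, adjusted p = 0.0820 by edgeR's quasi-likelihood test) and rested on these few counts, and it was −2.63 without control 1. *Ptgir*, the prostacyclin receptor, was 1.00 to 1.23 CPM in control and 0.538 to 0.633 CPM in *Gp130* ecKO uteri (log2 fold change −0.93). *Ptgfrn*, a membrane partner of the PGF2α receptor with the highest TPM of the role, was 141 to 240 CPM and 117 to 132 CPM (log2 fold change −0.68). The other PGD2 receptor, *Ptgdr2*, was at most 0.769 CPM, and the thromboxane receptor *Tbxa2r* at most 1.45 CPM. Stromal and endothelial marker sums were lower in the same uteri, as given above, and their part in the receptor levels was not tested.

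All 3 other breakdown enzymes had no overlap between the groups, 2 with higher and 1 with lower values, as had 31.3% of all genes tested. *Ptgr1*, a reductase of 15-oxo-prostaglandins and leukotrienes, was 35.5, 54.8 and 24.9 CPM in controls 1, 2 and 3, whereas *Gp130* ecKO 1, 2 and 3 had 158, 82.1 and 62.6 CPM (log2 fold change 1.39, adjusted p = 0.113 by edgeR's quasi-likelihood test). *Ptgr2*, a reductase of the same step, was 35.5 to 70.0 CPM in control and 82.1 to 105 CPM in *Gp130* ecKO uteri (log2 fold change 0.91). *Ptgr3* was 83.9 to 114 CPM in control and 46.6 to 62.1 CPM in *Gp130* ecKO uteri (log2 fold change −0.94, SE 0.19, adjusted p = 0.0732 by edgeR's quasi-likelihood test). The transporter genes *Slco2a1*, for uptake, and *Abcc4*, for export, overlapped between the groups, with log2 fold changes of 0.12 and −0.22. With single uteri left out these ran from −0.51 to 0.81 and from −0.53 to 0.02, so both signs turned.

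**Figure D4:**
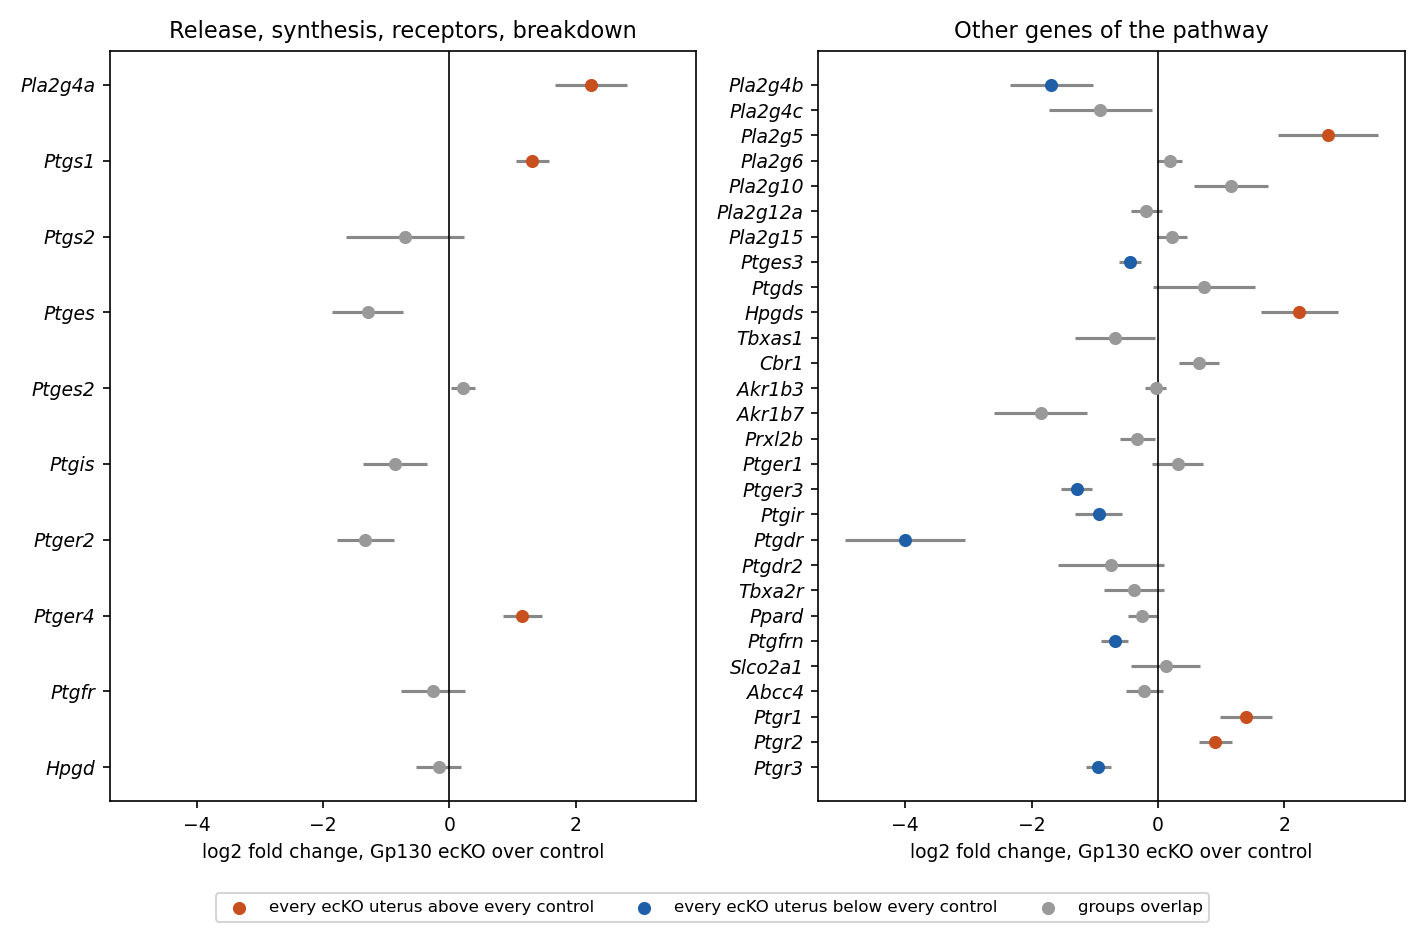
Log2 fold change (*Gp130* ecKO over control, edgeR) with its standard error for the 10 genes (left) and the 28 other pathway genes tested (right). Orange points are genes with every *Gp130* ecKO uterus above every control, blue points genes with every one below, and grey points genes whose groups overlap.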

How the data were processed

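Uterine RNA of 3 control and 3 *Gp130* ecKO females was read from strand-specific libraries. The authors trimmed reads with fastp 0.23.2, removed ribosomal RNA reads with SortMeRNA, mapped to GRCm39 with STAR 2.7.10a and estimated counts with RSEM 1.3.3, which divides shared reads between genes. The annotation version and whether strand was used in counting are not given in the sources used here, so reads of overlapping antisense genes may be mixed. The deposited expected counts were not normalized. The deposited TPM and FPKM were scaled by the authors for gene length and depth, and served for levels and ratios only (TPM) and as an alternative (FPKM).

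After rounding of the expected counts, groups were compared in edgeR 4.0.16 under R 4.3.3 (filterByExpr, TMM scaling, quasi-likelihood F test, Benjamini-Hochberg adjustment over 16605 genes). The criterion was an FDR under 0.05 and more than 2-fold change. SE was obtained as log2 fold change over the root of F. Single genes and ratios were also compared by exact two-sided permutation tests, on log2(CPM + 0.5) and on log2 of TPM + 0.1. Replicates are separate uteri per the labels, and p-values measure only the spread between these samples. Depth of 13960748 to 25906443 counts per uterus means that 1 count is 0.0385 to 0.0667 CPM. The analysis was also run on simulated data, and the outcome is not used as support here. Alternatives were other tests (DESeq2 1.42.0), normalizations, filters, thresholds, counts without rounding, a replicate block and the removal of single uteri.

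Symbols and coordinates came from GENCODE M39, and promoters from RefSeq (GRCm38.p6). The 10 genes are all named. Other pathway genes are named where the unadjusted p was under 0.05 or the TPM was the highest of their role. Receptors and synthases at or near 0 are also named, as are *Akr1b3*, *Cbr1*, *Prxl2b* and the transporters. These were chosen after their values were seen. The genes and lists, cell type markers included, were chosen with earlier results of these data known.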

Additional observations from a re-analysis of the deposited data

How the results depend on the processing

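Over 17 alternatives for each of the 10 genes, 153 of 170 fold changes kept their sign and their side of the criterion, 11 newly passed it and 6 changed sign. The number of the 10 genes that passed was 0 with all 6 uteri, 3 with edgeR's exact test and 3 with its likelihood ratio test, 4 with DESeq2 and 2 at an FDR under 0.1 (*Pla2g4a* and *Ptgs1*, against 5.16% of all genes). It was 0 to 1 with each uterus left out, 1 without control 2. Of all genes, 26 passed, 7 with the legacy form of the quasi-likelihood test, 1252 with the exact test, 1317 with the likelihood ratio test, 1542 with DESeq2, 105 with no filter on low counts, 856 at an FDR under 0.1, and 1 to 897 with each uterus left out (897 without control 2). The cause of these differences was not tested. Genes of the 10 without overlap numbered 3 to 5 with each uterus left out (36.5% to 45.9% of all genes tested) and 4 under upper quartile scaling (31.6%), and smaller groups overlap less often by construction. With each uterus left out the log2 fold change was −1.18 to 1.43 for *Ptgs2*, −0.55 to 0.18 for *Ptgfr* and −0.42 to 0.14 for *Hpgd*, and the log2 difference of the *Ptgs1* to *Ptgs2* ratio −0.40 to 1.71. No pairing of the samples by replicate number was seen. Deviations from the group means correlated at 0.10, 0.06 and −0.19 between same-numbered uteri, and not every uterus correlated best with its own number. Such values from 3 uteri per group cannot exclude pairing by number. With the number as a replicate block, 6 genes of all and 0 of the 10 passed, and *Ptgs2* turned to 0.38. The median log2 fold change of all genes was −0.05 with TMM and −0.11 with upper quartile scaling. *Ptgs2* had the largest standard error of the 10 genes (0.94), and control 3 had the fewest counts.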
